A study of Mus musculus with 288 samples.

Results

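The 10 genes described here encode the machinery that carries a cell through G1: the D-type cyclins Ccnd1, Ccnd2 and Ccnd3, their kinases Cdk4 and Cdk6, the kinase inhibitor Cdkn1b, the pocket proteins Rb1, Rbl1 and Rbl2, and the transcription factor E2f1. They were chosen by name from the 54232 genes of a single-cell RNA count table, and all 10 were present in it. Each measurement is 1 cell, labelled throughout as the mouse embryonic stem cell line E14 (strain 129/Ola), flow sorted into a 96-well plate and processed by scNMT-seq, which reads polyadenylated RNA beside DNA methylation and accessibility of the same cell. D0 cells (0 h) were kept in 2i+LIF, a serum-free N2B27 medium in which CHIR99021 inhibits the kinase GSK3, PD0325901 inhibits MEK, and leukaemia inhibitory factor is present. D1 and D2 cells were taken 24 h and 48 h after that medium was exchanged for a medium with fetal bovine serum and LIF and without either inhibitor. Cells of all groups were grown on plastic coated with gelatine, and sorted cells were exposed to the GpC methylase M.CviPI before lysis.

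D-type cyclins accumulate in response to growth factor signals and bind CDK4 or CDK6. The active kinases phosphorylate the pocket proteins, which otherwise hold E2F transcription factors in check, and E2F activity then drives the genes of DNA replication. In many somatic cells the MEK and ERK kinases induce Ccnd1, so a medium with a MEK inhibitor is expected to lower D-type cyclins. Embryonic stem cells are known for a short G1 phase and for keeping much of their RB protein phosphorylated.

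Of 288 wells, 233 passed the limits of more than 200000 reads on genes, more than 2000 detected genes and a mitochondrial share under 0.15, with 90 cells in D0, 50 in D1 and 93 in D2. Reads on genes per passing cell spanned 255040 to 10073010 in D0, 202157 to 43336922 in D1 and 491549 to 9812323 in D2. The median number of detected genes was 4744 in D2 cells, below the 9002 of D0 and the 10676 of D1, and D2 stayed below both others after each cell was thinned to 200000 reads (3952, 7823.5 and 8058). Each time point is 1 culture on 1 plate, so time in serum and plate cannot be told apart, and no test was made. Errors are standard deviations between cells of that culture, and the intervals of read counts and of shares cover counting error only, since reads without molecular identifiers are not independent molecules.

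Libraries labelled D1 stood apart from the others before any G1 gene was considered. The mean level of the X-linked gene Hprt was 207 CPM (reads of a gene per 1000000 reads on genes) in D1 against 3.08 CPM in D0 and 2.68 CPM in D2. A read of at least 1 of 4 Y-linked genes was present in 48 of 50 D1 cells, in 3 of 90 D0 cells and in 5 of 93 D2 cells. E14 was derived from a male embryo, and the E14 source that the study's methods cite is an HPRT-deficient line. The Hprt level of D1 therefore goes against that label, as does the scarcity of Y-linked reads in D0 and D2. Whether the plates hold cells of 1 line was not tested, and in each ratio with D1 below a difference between lines and one of time cannot be told apart. All 8 markers of embryonic stem cells had a mean of at least 1 CPM at each time point, and the medians of their summed level were 4962, 6543 and 9626 CPM. Single markers did not all follow that sum. The means of Pou5f1, Dppa5a, Tdgf1 and Utf1 were above D0 in both D1 and D2. Those of Sox2, Nanog and Esrrb were below D0 in both, and that of Zfp42 was below D0 in D1 and above it in D2. Of 4 fibroblast markers, 3 reached 1 CPM in D1 against 1 each in D0 and D2. Their summed level ranged from 0 to 434 CPM in D0 cells, to 518 CPM in D1 cells and to 1250.1 CPM in D2 cells, and Col1a2 had no read in D0 or D2 and was under 1 CPM in D1. Of 3 ectoderm markers, 2 reached 1 CPM in D1 and 1 did in D0 and in D2, with highest sums of 199, 94.8 and 91.95 CPM, and Pax6 had no read in D0. Of 4 trophectoderm markers, 4 reached 1 CPM in D0 and D1 and 2 in D2, with highest sums of 454, 972 and 5888 CPM. Mesoderm markers reached 1 CPM in 3 of 3, 1 of 3 and 0 of 3 cases, with highest sums of 114, 24.6 and 3.64 CPM, and T had no read in D2. Of 5 primitive endoderm markers, 1, 0 and 1 did so, with highest sums of 97.2, 21.7 and 93.2 CPM, Sox7 without a read in D0 and D2 and Gata6 without one in D1. The part of these other cell types in the values below was not tested.

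The promoters of Rbl1 and Cdkn1b are shown because both genes were lower in D1 than in D0 by over 2-fold under every way of computing the values that was tried. E2f1 met the same criterion but is not shown, since the start site of its window lies 466 bases inside the gene as GENCODE draws it. RefSeq windows on GRCm38.p6 (250 bases before to 50 after a start site) were held for 7 of the 10 genes, in 8 windows. The Rbl1 window is chr2:157204485-157204784 on the minus strand and the Cdkn1b window is chr6:134920151-134920450 on the plus strand, and both start sites are also the first base of the gene in GENCODE M21. Capitals mark a match to an E2F motif.
Rbl1: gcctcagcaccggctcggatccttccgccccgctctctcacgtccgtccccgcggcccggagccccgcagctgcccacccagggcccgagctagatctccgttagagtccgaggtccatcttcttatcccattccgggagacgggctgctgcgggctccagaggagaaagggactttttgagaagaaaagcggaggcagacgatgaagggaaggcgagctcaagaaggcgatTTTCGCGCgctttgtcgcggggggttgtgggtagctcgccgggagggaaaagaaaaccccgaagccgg
Cdkn1b: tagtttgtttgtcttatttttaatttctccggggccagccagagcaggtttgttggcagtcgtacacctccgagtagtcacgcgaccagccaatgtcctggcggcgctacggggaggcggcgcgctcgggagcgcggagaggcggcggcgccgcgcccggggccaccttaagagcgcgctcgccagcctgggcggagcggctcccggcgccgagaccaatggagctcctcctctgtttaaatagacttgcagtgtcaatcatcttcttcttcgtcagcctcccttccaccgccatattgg
The motif was searched on both strands in 4 forms, TTTCCCGC, TTTCGCGC, TTTGCCGC and TTTGGCGC, which can overlap each other. Rbl1 was the 1 gene of the 7 with a match, which begins 18 bases before its start site. Of all 32851 windows, 2.26% held a match, as did 2.61% of the 27025 genes with a window. No match says only that these letters were not in a window.

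Ccnd1 and Ccnd3 were the D-type cyclins of these cells, and their mean levels were alike in 2i and after 24 h in serum. Ccnd1 (chr7:144929931-144939925, minus strand), the cyclin most often tied to growth factor signals, had 152 ± 128 CPM in D0 (SD, n = 90 cells), 147 ± 170 CPM in D1 (SD, n = 50 cells) and 131 ± 185 CPM in D2 (SD, n = 93 cells). The lowest cell had 0 CPM at each time point, while the median and highest cells had 121 and 724 CPM in D0, 98.3 and 1034 CPM in D1, and 32.3 and 825 CPM in D2. The 3 distributions overlapped over nearly their whole range, and D2 differed by a larger number of cells at or near 0. The log2 ratio of mean CPM + 1 was -0.04 for D1 over D0 and -0.21 for D2 over D0, both well inside the spread between cells. In D1 its sign depended on the side of the plate, at -0.54 in columns 1 to 6 and 0.35 in columns 7 to 12. In D2 over D0 it ran from -2.21 as a difference of mean log2(CPM + 1) and -1.87 for the median cell, both past 2-fold lower, to 0.14 with median-of-ratios factors and 0.19 with TMM factors. The mean of Ccnd1 in D2 was thus close to that of D0 while its typical cell was lower.

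Ccnd3 (chr17:47505051-47599691, plus strand), the cyclin D most prominent in lymphoid cells, had 157 ± 85.8 CPM in D0 cells, 164 ± 142 CPM in D1 cells and 255 ± 285 CPM in D2 cells. Its median and highest cells had 150.4 and 378 CPM in D0, 132 and 637 CPM in D1, and 162 and 1227 CPM in D2, with a lowest cell at 0 CPM in each. The mean was highest in D2 although the medians lay close together, and the upper quartile of D2 cells, 379 CPM, was about level with the highest D0 cell. The log2 ratio was 0.06 for D1 over D0 and 0.69 for D2 over D0, and the second ranged from -0.36 as a difference of mean log2(CPM + 1) to 1.15 with TMM factors. Reads of the pseudogene Ccnd3-ps numbered 12, 62 and 19 against 29870, 111039 and 64249 reads of Ccnd3.

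Ccnd2 (chr6:127125162-127152193, minus strand), a cyclin used by many differentiated lineages, had no read in any of the 90 D0 cells, which allows a share of up to 3.33% of cells with a read by the floor of 3 counts (the upper end of the exact interval is 4.02%). In D1 it had 5.48 ± 18.4 CPM with reads in 10 of 50 cells and a highest cell of 100.4 CPM, and in D2 2.02 ± 12.2 CPM with reads in 7 of 93 cells and a highest cell of 91.2 CPM. A few cells carried it, the top 5 holding 95.1% of the level in D1 and 99.2% in D2. The level from reads summed over cells was 632 times that of a floor of 3 reads in D0 for D1 (5830 reads). For D2 (290 reads) it was 82.6 times that of the floor. Against the upper Poisson limit of 3.69 reads in place of that floor, these were 514-fold and 67.2-fold. Such folds count reads, which are not independent molecules and come from few cells, so they set no lower bound on the difference between time points. Without its highest cell the mean was 3.54 CPM in D1 and 1.05 CPM in D2.

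**Figure D1:**
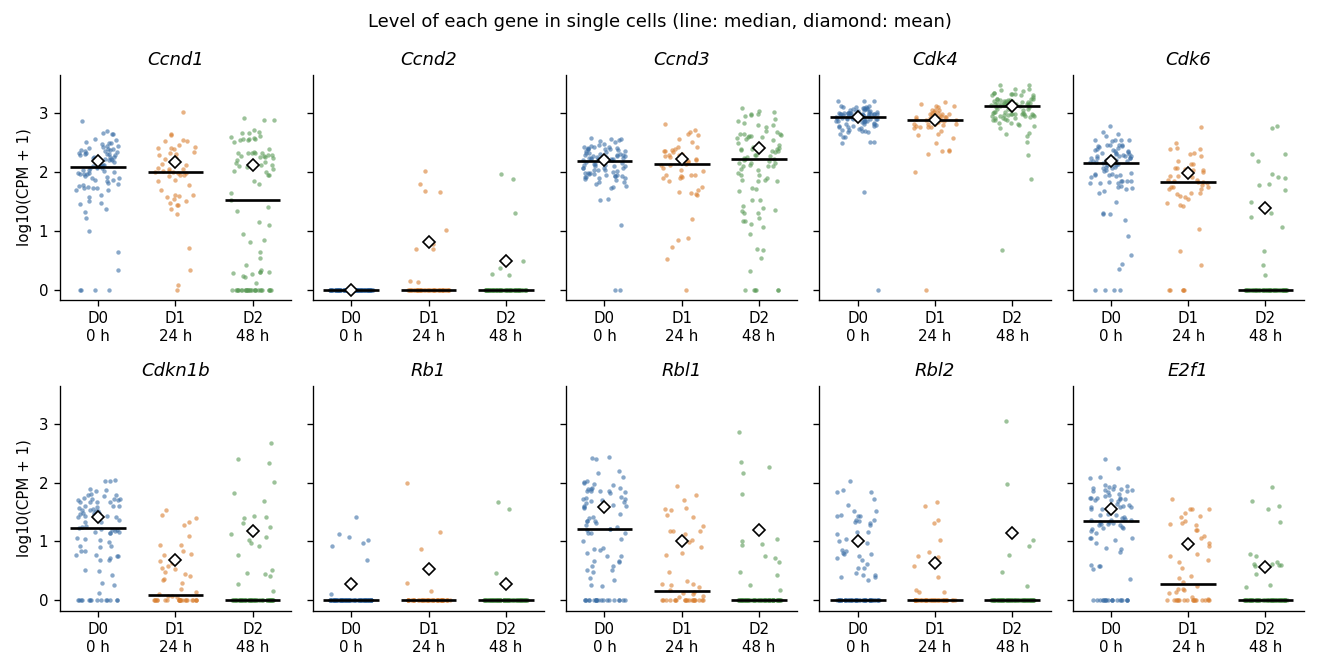
Level of each of the 10 genes in single cells, as log10(CPM + 1), for 90 D0, 50 D1 and 93 D2 cells; points are cells, black lines are medians and white diamonds are means. Cdk4 is high in nearly every cell at each time point, whereas in D2 the medians of Cdk6, Cdkn1b, Rbl1 and E2f1 are at 0 and single high cells pull their means up.

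Cdk4 (chr10:127063534-127067920, plus strand), the main partner of D-type cyclins in most tissues, was the most abundant of the 10 genes. It had 842 ± 307 CPM in D0 cells, 747 ± 342 CPM in D1 cells and 1289 ± 599.6 CPM in D2 cells. The lowest, median and highest cells had 0, 863 and 1622 CPM in D0, 0, 750.1 and 1548 CPM in D1, and 3.64, 1288 and 2981.5 CPM in D2. The median D2 cell was above the upper quartile of D0 cells (1009 CPM), and the groups overlapped. The log2 ratio was -0.17 for D1 over D0, turning to 0.29 with TMM factors, and 0.61 for D2 over D0, where it stayed between 0.55 and 1.10 under all 14 alternatives and passed 2-fold with TMM and with median-of-ratios factors.

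Cdk6 (chr5:3341485-3531008, plus strand), the related kinase, was lower at each later time point. Its level was 154 ± 118 CPM in D0 cells, 93.7 ± 101 CPM in D1 cells and 23.7 ± 90.1 CPM in D2 cells. The median and highest cells had 138 and 599.8 CPM in D0, 65.9 and 577 CPM in D1, and 0 and 605 CPM in D2, with a lowest cell at 0 CPM in each. In D2 a typical cell had no Cdk6 read, while the single highest cell was level with that of D0, and 5 of 93 cells held 77.3% of the level. On reads summed over cells the levels were 178 CPM (exact Poisson 95% interval 177 to 180.2), 87.5 CPM (86.8 to 88.2) and 16.3 CPM (15.8 to 16.8). The log2 ratio was -0.71 for D1 over D0, short of 2-fold on means but past it for the median cell (-1.05) and for reads summed over cells (-1.02), and -2.65 for D2 over D0. The second was past 2-fold under all 14 alternatives, with values from -7.12 to -2.29, and was -2.56 and -2.74 in the 2 sides of the plates.

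To set levels of different genes side by side, CPM was divided by the length of all annotated exons of a gene together. This was 4.709 kb for Ccnd1 and 8.775 kb for Ccnd3, whichever exons the transcripts used, so the order of genes depends on this choice. Per kilobase of exon, Cdk4 came first at each time point with 259, 230.0 and 397 CPM per kb in D0, D1 and D2. It was the only gene whose lead over the next in order was larger than its own SD between cells. Ccnd1 followed at 32.2, 31.3 and 27.8 CPM per kb and Ccnd3 at 17.9, 18.7 and 29.04 CPM per kb. The pair thus changed places in D2, by 1.22 CPM per kb against an SD between cells of 32.4 for Ccnd3. In plain CPM the mean of Ccnd3 was above that of Ccnd1 at each time point, at 157 against 152 CPM in D0. On the scale per kilobase Ccnd1 made up 64.2%, 61.9% and 48.7% of the summed D-type cyclin level, and Ccnd3 35.8%, 37.0% and 50.9%. The sum itself was 50.1, 50.6 and 57.1 CPM per kb, and Ccnd2 was at most 1.15% of it. Cdk6 made up 4.08%, 2.83% and 0.425% of the summed level of both kinases. The lower neighbours in the order (Cdk6, E2f1, Rbl1, Cdkn1b, Rbl2, Rb1 and Ccnd2 in D0) each exceeded the next by less than its own SD between cells.

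Cdkn1b (chr6:134920401-134925513, plus strand) encodes p27, which binds and restrains cyclin and kinase complexes in quiescent and early G1 cells. It had 24.8 ± 25.7 CPM in D0 cells, 3.81 ± 7.55 CPM in D1 cells and 14.3 ± 60.4 CPM in D2 cells. The median and highest cells had 16.1 and 111 CPM in D0, 0.223 and 32.6 CPM in D1, and 0 and 475 CPM in D2, with a lowest cell at 0 CPM in each. D1 cells lay in the lower part of the D0 range, and D2 held both more cells at 0 and the highest cells. The log2 ratio for D1 over D0 was -2.43 and was past 2-fold lower under all 14 alternatives, from -3.81 to -1.34. For D2 over D0 it was -0.76, from -4.10 for the median cell to -0.23 with TMM factors, and it was -1.33 without the highest D2 cell, when the D2 mean was 9.29 CPM. For D2 over D1 it was 1.67 on the mean, yet -0.29 for the median cell.

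The pocket proteins were sparse, and Rbl1 was the one most cells of D0 had reads of. Rbl1 (chr2:157145893-157204534, minus strand) encodes p107, which is itself a product of E2F-driven transcription in many cells. It had 38.1 ± 55.02 CPM in D0 cells, 9.37 ± 17.9 CPM in D1 cells and 15.0 ± 81.8 CPM in D2 cells. Its median and highest cells had 15.5 and 268 CPM in D0, 0.443 and 87.9 CPM in D1, and 0 and 727 CPM in D2. Most D2 cells were at 0, and without the single highest cell the D2 mean was 7.23 CPM. The log2 ratio was -1.91 for D1 over D0, past 2-fold under all 14 alternatives, and -1.29 for D2 over D0, past 2-fold under 11 of 14. In columns 1 to 6 the D2 ratio was -0.29 and in columns 7 to 12 it was -2.92. Left out in turn, single cells moved the D2 ratio between -2.25 and -1.19.

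Rbl2 (chr8:91070057-91123844, plus strand) encodes p130, the pocket protein of quiescent cells. Its level was 9.17 ± 18.7 CPM in D0 cells, 3.23 ± 9.32 CPM in D1 cells and 13.1 ± 114 CPM in D2 cells, with a median of 0 CPM at each time point and highest cells of 106, 46.3 and 1094 CPM. A single D2 cell decided the D2 mean, which was 1.30 CPM without it. The log2 ratio was -1.27 for D1 over D0, past 2-fold under 9 of 14 alternatives and the same in both sides of the plates (-1.29 and -1.25). For D2 over D0 it was 0.47, and it ran from -2.14 to 0.63 as single cells were left out.

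Rb1 (chr14:73183673-73325822, minus strand), the retinoblastoma gene, was near the limit of detection in every group. It had 0.863 ± 3.45 CPM in D0 cells, 2.35 ± 13.7 CPM in D1 cells and 0.883 ± 5.91 CPM in D2 cells, with reads in 8 of 90, 5 of 50 and 3 of 93 cells. No difference in Rb1 was detectable at this depth, since the D1 mean was 0.434 CPM without its highest cell. For all pocket proteins together the level was 7.71, 2.38 and 4.37 CPM per kb, of which Rbl1 was 82.4%, 65.7% and 57.1%. The D2 values rest on well E09, the cell high in Rbl2, without which the level was 2.83 CPM per kb and the Rbl1 share 88.7%. The D1 values were 2.10 CPM per kb and 75.9% without the highest cell.

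E2f1 (chr2:154559407-154569892, minus strand), the E2F that most directly activates the genes of S phase entry, had its highest level in D0 and its lowest in D2. It had 34.3 ± 40.8 CPM in D0 cells, 8.12 ± 12.3 CPM in D1 cells and 2.75 ± 11.2 CPM in D2 cells. The median and highest cells had 21.2 and 248 CPM in D0, 0.880 and 50.9 CPM in D1, and 0 and 82.6 CPM in D2, with a lowest cell at 0 CPM in each. The upper part of the D0 range had no counterpart in D1 or D2, while cells at or near 0 were shared by all 3 groups. The summed reads gave 30.6 CPM (exact Poisson 95% interval 29.8 to 31.3), 8.18 CPM (7.96 to 8.40) and 2.21 CPM (2.03 to 2.41). The log2 ratio was -1.95 for D1 over D0 and -3.23 for D2 over D0, and both were past 2-fold lower under all 14 alternatives. The D2 ratio was -3.04 in columns 1 to 6 and -3.48 in columns 7 to 12.

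**Figure D2:**
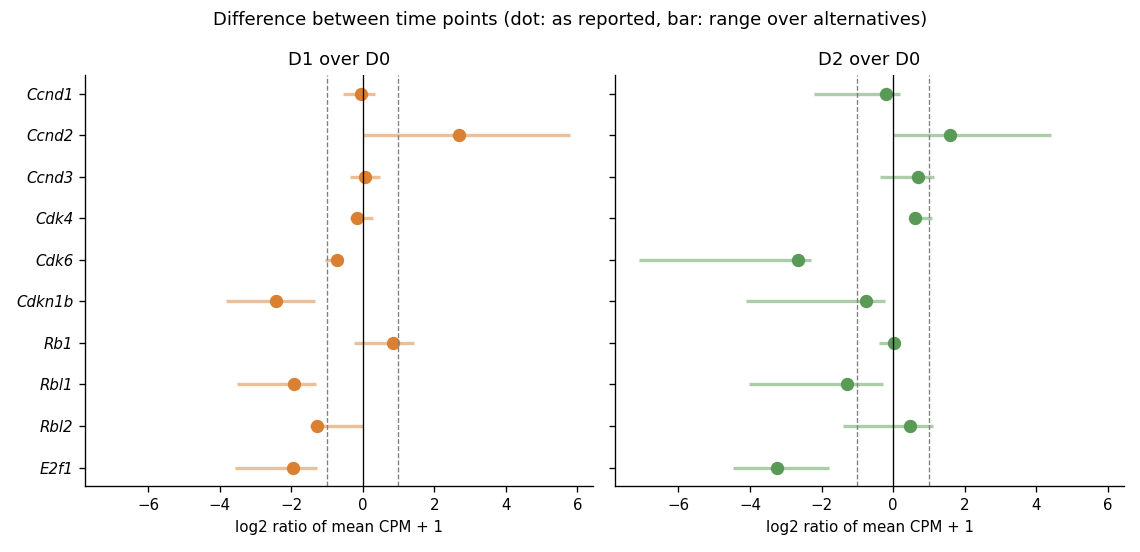
Log2 ratio of mean CPM + 1 of each gene for D1 over D0 (left) and D2 over D0 (right); dots are the values as reported, bars run from the lowest to the highest of 14 alternatives and dashed lines mark 2-fold. Cdkn1b, Rbl1 and E2f1 in D1, and Cdk6 and E2f1 in D2, lie below the lower dashed line over the whole bar.

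Counts of the genes past 2-fold were read against all 13784 genes with a mean of at least 1 CPM, and the comparisons of D1 and of D2 share the D0 cells. In D1 over D0, 4 of the 10 genes were lower (Cdkn1b, Rbl1, Rbl2 and E2f1), against 27.2% of all tested genes, and 1 was higher (Ccnd2), against 15.4%. In D2 over D0, 3 of the 10 were lower (Cdk6, Rbl1 and E2f1), against 28.3%, and 1 was higher (Ccnd2), against 16.5%. Between D1 and D2, 2 were higher in D2 (Cdkn1b and Rbl2), against 20.0%, and 3 were lower (Ccnd2, Cdk6 and E2f1), against 21.2%. On the median cell, 5 of the 10 were lower in D2 than in D0 (Ccnd1, Cdk6, Cdkn1b, Rbl1 and E2f1), against 45.6% of all tested genes, and 0 were higher, against 2.71%. In D1 over D0, 4 were lower on the median cell (Cdk6, Cdkn1b, Rbl1 and E2f1), against 19.9%, and 0 were higher, against 15.1%. Each count of means was within 2 genes of what the share of all genes would give for 10 genes. The median log2 ratio of the 10 genes was -0.44, -0.10 and 0.23 for D1 over D0, D2 over D0 and D2 over D1, beside -0.26, -0.16 and 0.003 over all tested genes. The shift that TMM factors added to each log2 ratio was 0.21 (D1 over D0) and 0.28 (D2 over D0). The counts were identical without the D0 and D2 cells with Y-linked reads and the D1 cells without them, where Cdkn1b was at -2.38, Rbl1 at -1.91 and E2f1 at -2.07 in D1 over D0, and Cdk6 at -2.70 and E2f1 at -3.20 in D2 over D0. Cdk6 in D1 over D0 was at -0.81 in those cells and Ccnd1 at 0.03. That setting kept 87, 48 and 88 cells, and the plates still differed in Y-linked reads. It therefore cannot tell a difference between lines from one of time.

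The share of cells with a read was compared at equal depth, with each cell thinned to 200000 reads. Ccnd1 had a read in 94.4% of D0 cells (exact Clopper-Pearson 95% interval 87.5 to 98.2), 94% of D1 cells (83.5 to 98.7) and 60.2% of D2 cells (49.5 to 70.2). Ccnd3 was read in 97.8%, 98% and 90.3% of cells, and Cdk4 in 98.9%, 98% and 100%. Cdk6 went from 91.1% (83.2 to 96.1) and 88% (75.7 to 95.5) to 15.1% (8.48 to 23.97). So in D2 Cdk4 and Ccnd3 remained in most cells, whereas Cdk6 was read in few.

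Cdkn1b was read in 75.6% (65.4 to 84.003), 28% (16.2 to 42.5) and 19.4% (11.9 to 28.9) of cells, and E2f1 in 75.6% (65.4 to 84.003), 34% (21.2 to 48.8) and 8.60% (3.79 to 16.2). Rbl1 was read in 67.8%, 36% and 11.8%, Rbl2 in 35.6%, 14% and 5.38%, Rb1 in 4.44%, 6% and 2.15%, and Ccnd2 in 0%, 10% and 3.23%. Before thinning, the D0, D1 and D2 shares were 84.4%, 56% and 24.7% for Cdkn1b, 78.9%, 66% and 17.2% for E2f1, 95.6%, 90% and 19.4% for Cdk6, 77.8%, 60% and 17.2% for Rbl1 and 95.6%, 98% and 70.97% for Ccnd1. For the pocket proteins the order of D0 over D1 over D2 held for Rbl1 and Rbl2 both before and after thinning, Rbl2 having 45.6%, 28% and 7.53% of cells with a read before it.

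Among genes with high shares in D0, lower shares were common in D2 and rare in D1. Over the 7516 genes found in 50% or more of thinned D0 cells, 7 of which are among the 10, the median share was 85.6%, 86% and 37.6% at the 3 time points. These genes, and the 7, were kept for a high share in D0, so the comparison can show lower shares but hardly higher ones. In D1, 5.80% of the 7516 genes had a share of cells less than 0.5 times that of D0, as did 2 of the 7 (Cdkn1b and E2f1). In D2, 54.2% of them did, as did 4 of the 7 (Cdk6, Cdkn1b, Rbl1 and E2f1). The 3 that did not, Ccnd1, Ccnd3 and Cdk4, had shares above the D2 median of all these genes. This follows from their D0 shares of 94.4%, 97.8% and 98.9%, since 0.5 times these is already above that median. The part of the lower gene detection of D2 cells in their shares was not tested.

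**Figure D3:**
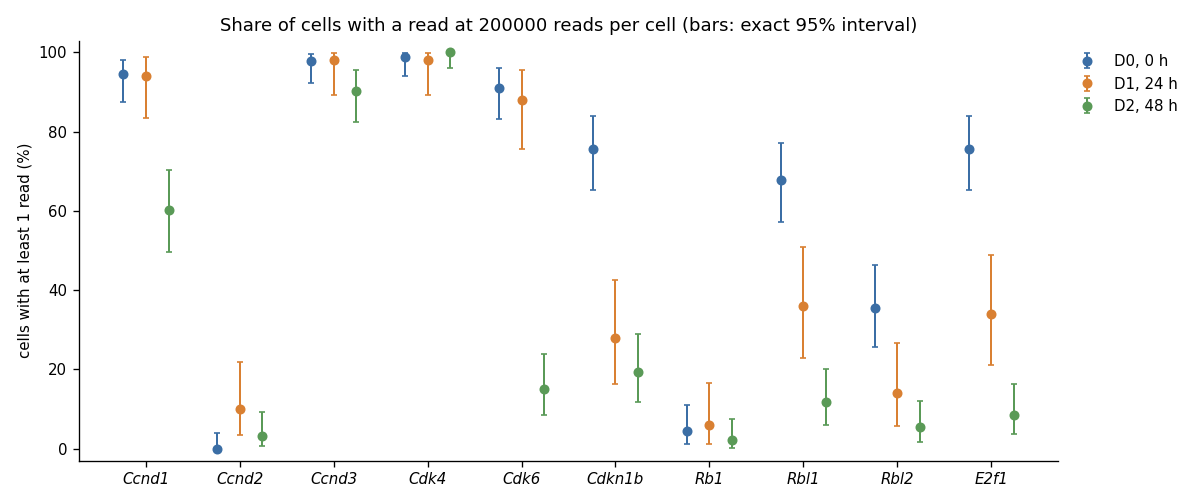
Share of cells with at least 1 read of each gene after each cell was thinned to 200000 reads, for D0 (90 cells), D1 (50 cells) and D2 (93 cells); points are shares in percent and bars are exact 95% intervals, which cover counting error only. Ccnd3 and Cdk4 stay above 90% throughout, Cdk6 is at 91.1%, 88% and 15.1%, and Cdkn1b, Rbl1, Rbl2 and E2f1 are lower in D1 than in D0 and lowest in D2.

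Combinations of the genes were counted in single cells at equal depth. They stand beside the lower detection of genes at large in D2, where 3952 genes were detected in the median thinned cell against 7823.5 in D0. Both Ccnd1 and Ccnd3 were read in 92.2% of D0 cells, 92% of D1 cells and 56.99% of D2 cells at equal depth. Ccnd3 without Ccnd1 was found in 5.56%, 6% and 33.3% of cells, Ccnd1 without Ccnd3 in 2.22%, 2% and 3.23%, and neither in 0%, 0% and 6.45%. A D2 cell that had 1 of the pair thus had Ccnd3 far more often, in 31 cells against 3. This restates the D2 shares of each gene alone, 90.3% for Ccnd3 and 60.2% for Ccnd1, and shows no further pattern within cells. Reads of both kinases were present in 91.1%, 86% and 15.1% of cells, and 1 D0 cell had neither. No pocket protein was read in 23.3% of D0 cells (15.1 to 33.4), 54% of D1 cells (39.3 to 68.2) and 81.7% of D2 cells (72.4 to 88.98). All 3 pocket proteins together were read in no cell of any group. The median cell had reads of 6.5 of the 10 genes in D0, 5 in D1 and 3 in D2.

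Rank correlations between the genes from cell to cell were mostly weak. Over the 21 pairs in which both genes were found in 50% or more of thinned D0 cells, Spearman's rho ranged from -0.14 to 0.33 with a median of 0.04 over 90 cells. The highest pair was Ccnd3 with Cdk4, at 0.33 in D0 and 0.62 over the 50 D1 cells, against -0.009 over the 93 D2 cells. These cells share a plate and a culture, and both genes also followed the number of detected genes, at 0.30 and 0.25 in D0 and 0.41 and 0.34 in D1 for Ccnd3 and Cdk4. In D2 the corresponding values were 0.24 and 0.01. Ccnd1 and E2f1 had a rho of -0.10 in D0, and Rbl1 and E2f1 -0.14.

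The rest of the G1 pathway was read through 7 lists of genes, whose counts past 2-fold stand beside the same 15.4% (higher) and 27.2% (lower) of all genes in D1 over D0, and 16.5% and 28.3% in D2 over D0. Among 9 genes of E-type cyclins and CDK2, the next kinase in the cycle, 2 were higher and 1 lower past 2-fold in D1 over D0, with a median log2 ratio of -0.09. Ccne1, the cyclin that activates CDK2 at the end of G1, had a log2 ratio of 2.37 (402 ± 357 CPM in D1 against 76.97 ± 85.2 CPM in D0) and the kinase subunit Cks1b 1.74, while Cdk2 was at -1.26. In D2 over D0, 3 were higher (Ccne1 at 1.88, the S phase cyclin Ccna2 at 1.62 and Cks1b at 1.05) and 2 lower (the phosphatase Cdc25a at -2.27 and Ccne2 at -1.23), with a median of 0.27. Single cells decided the calls of Cks1b (0.97 without well B12 of D2) and Ccne2 (-0.84 without well A01 of D0). Ccne1 was thus above D0 at both later time points while E2f1 was below it, and its median cell had 47.2, 335 and 147 CPM in D0, D1 and D2.

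Of 6 further CDK inhibitors, 5 were tested, with 2 higher and 0 lower in D1 over D0 (Cdkn2b at 1.63 and Cdkn1c at 1.52) and 1 higher in D2 over D0 (Cdkn1c at 2.40). On the median cell in D1 over D0, 0 were higher and 1 lower, against 15.1% and 19.9% of all genes, with Cdkn2b at 0 and Cdkn1c at 0.15. All these were low, with Cdkn1c at 0.397, 3.02 and 6.39 CPM, and the list medians were -0.15 and -0.19. The 3 genes of the CDK-activating kinase, which phosphorylates CDK4 and CDK6, had none past 2-fold in D1 or D2, with medians of -0.28 and 0.11. The other tested inhibitors included Cdkn1a (p21) at -0.67 and Cdkn2a at -0.61 in D1 over D0, below D0 but short of 2-fold on means. Cdkn1a was the 1 inhibitor lower on the median cell, which had 197 CPM in D0 and 81.8 CPM in D1. On the median cell in D2 over D0, 2 of the 9 genes of E-type cyclins and CDK2 were higher and 4 lower, 0 of the 5 inhibitors were higher and 3 lower, and 0 of the 3 genes of the CDK-activating kinase were higher and 1 lower, against 2.71% (higher) and 45.6% (lower) of all genes.

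Among 9 other E2F and DP genes, 1 was higher and 2 lower in D1 over D0, namely E2f8, a repressor E2F, at 1.22, E2f5 at -1.75 and E2f6 at -1.26. In D2 over D0, 2 were higher (E2f8 at 2.42 and the activator E2f2 at 1.97) and 3 lower (E2f6 at -4.01, E2f5 at -1.60 and E2f3 at -1.26). The medians were 0.09 and -0.01, beside -0.26 and -0.16 over all tested genes. On the median cell in D1 over D0, 3 were higher and 2 lower, against 15.1% and 19.9% of all genes, with a list median of 0. In D2 over D0 0 were higher and 6 lower on the median cell, with a list median of -1.26. Of all genes 45.6% were lower there, with an all-gene median of -0.36 on the same scale. E2f8 and E2f2 in D2 rested on few cells, the top 5 holding 84.7% and 92.3% of their levels. The thinned share of cells with E2f8 was 21.5% against 31.1% in D0, and E2f2 was at 1.09 without its highest D2 cell, in well B04, with a mean of 4.11 CPM in place of 8.37. Of 6 genes of the DREAM and MuvB complexes, in which p107 and p130 repress cell cycle genes, 0 passed 2-fold in D1 over D0. In D2 over D0, Lin9 was higher at 1.87, and Lin54 at -1.96 and Rbbp4 at -1.08 were lower, whereas on the median cell 0 of the 6 were higher and 5 lower, with a list median of -3.11, beside the same 45.6% and -0.36 over all genes. The top 5 cells held 94.04% of the Lin9 level and 97.0% of the Lin54 level in D2. Without the highest D2 cell Lin9 was at 1.25 (well D06) and Lin54 at -3.33 (well G05), with a Lin54 mean of 1.91 CPM in place of 6.50, and the median cell of Lin9 was at -3.07.

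Few of the 14 E2F target genes of DNA replication passed 2-fold on the mean. In D1 over D0, 1 was higher past 2-fold (Cdc6, which loads the replicative helicase, at 1.08, or 0.93 without well D09 of D1) and 0 were lower, with a median of -0.12, and in D2 over D0 none passed 2-fold in either direction, with a median of 0.22. On the median cell, 3 of 14 were lower past 2-fold in D2 over D0, against 45.6% of all genes, with a median log2 ratio of -0.58. Named after their values were seen, Chek1 had a median cell of 98.0 CPM in D0 and 3.09 CPM in D2, Cdc6 78.4 and 1.37 CPM, and Mcm4 372 and 151 CPM. Their thinned shares of cells with a read went from 92.2% to 52.7%, from 84.4% to 47.3% and from 97.8% to 88.2%.

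On means, the 10 ERK target genes had the list median farthest from 0 of the 7 lists. In D1 over D0, 7 of 10 were higher, against 15.4% of all genes, and 0 were lower, with a median log2 ratio of 2.87. Dusp4 was at 4.22, the immediate early gene Egr1 at 3.74 and the ERK phosphatase Dusp6 at 3.64. The other 3, Spry2 at 0.72, Etv4 at 0.35 and Etv5 at -0.58, did not pass 2-fold. Few D1 cells carried some of them, the top 5 holding 88.6% of the level of Egr1, which was at 3.13 without its highest cell (well E06), and 96.3% of that of Fos, which went from 11.6 to 4.01 CPM without well E05. In D2 over D0, 4 were higher (among them Egr1 at 4.26, the feedback inhibitor Spry4 at 3.66 and Dusp6 at 3.09) and 1 was lower (Spry2 at -2.92), with a median of 0.58. On the median cell the counts were 5 higher and 0 lower in D1 over D0, where 15.1% of all genes were higher, with a list median of 0.89. They were 0 higher and 3 lower in D2 over D0, where 2.71% of all genes were higher and 45.6% lower, with a list median of 0. Dusp6 had 6.74 ± 20.9, 95.6 ± 84.8 and 64.7 ± 159 CPM in D0, D1 and D2, with a read in 18.9%, 82% and 27.96% of thinned cells. On the same scale of mean CPM + 1, Ccnd1 was at -0.04 and Ccnd3 at 0.06 in D1 over D0. For 6 of the 7 ERK target genes past 2-fold the difference of means was, as for these cyclins, smaller than the SD between D1 cells, Dusp6 being the exception.

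**Figure D4:**
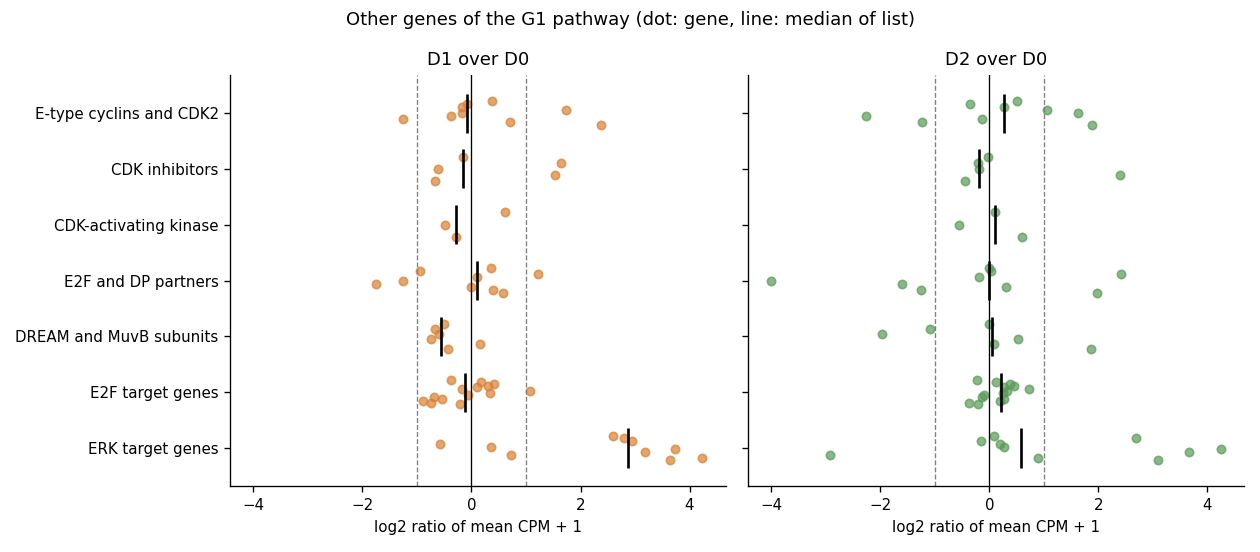
Log2 ratio of mean CPM + 1 for the genes of 7 lists around the G1 pathway, for D1 over D0 (left) and D2 over D0 (right); dots are genes with a mean of at least 1 CPM, black lines are list medians and dashed lines mark 2-fold. The ERK target genes have a median of 2.87 in D1 and 0.58 in D2, and the E2F target genes medians of -0.12 and 0.22.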

How the data were processed

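The authors aligned single-cell RNA reads to GRCm38 with HISAT2, per the labels (version, annotation and counter not given in the sources used here), and the deposited table gives the count of reads on each gene in 288 wells as whole numbers. Although the labels speak of filtering and normalization, totals differ between wells and failing wells are present, so the values were taken as raw counts. The filter given in the study's methods, read as a mitochondrial fraction of 0.15, left 233 cells, which is not the number given there. Counts were scaled to CPM over all reads on genes, and means give each cell equal weight. Ratios are log2 of (mean + 1 CPM), which understates changes of low genes. Thinning drew 200000 reads per cell once with a fixed seed. All 10 genes are named, and from each list the up to 3 highest and 3 lowest log2 ratios past 2-fold. Cdkn1a, Cdkn2a, Etv4, Etv5, Fos, Chek1, Mcm4 and, in D1, Spry2 were named after their values were seen. The members and lists were chosen with earlier results of these data known. A narrower E2F motif of 2 of the 4 forms was searched first and matched the same gene; the other forms were added after that was seen. Exon lengths and coordinates are from GENCODE M21. Python 3.11.15, numpy 2.4.6, pandas 2.3.3, scipy 1.17.1 and edgeR 4.0.16 in R 4.3.3 (TMM) were used, and ratios were tested on simulated data. The alternatives were other filters, pseudocounts of 0.1 and 10 CPM, summed reads, medians, mean logs, TMM and median-of-ratios factors, other totals, thinning, the sides of the plate and cells split by Y-linked reads. Leaving out each cell, medians for the lists and sums without the highest cell were added after seeing the data. DNA methylation and accessibility data were not analysed here.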

Additional observations from a re-analysis of the deposited data

Results flagged for a closer look

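Wells that failed the filter on cells are outside all comparisons above, and some of them held reads of the G1 genes. The 6 such D0 wells had 86 reads of the 10 genes among 114562 reads on genes, of which 72 were Cdk4. The 46 D1 wells had 444 among 357724, of which 286 were Cdk4, 68 Ccnd3 and 66 Ccnd1, with at least 1 read in 19 wells. The 3 D2 wells had 1290 among 1459044, of which 644 were Cdk4 and 646 Ccnd3, with none of Ccnd1. These counts are above the 3 reads that a count of 0 allows, and no comparison rests on them.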

How the results depend on the processing

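No paired analysis was possible because the labels carry no replicate numbers and a time point is 1 culture. Of 420 log2 ratios recomputed under other settings, 41 had the opposite sign, 4 of them among the 196 of ratios past 2-fold and 37 among the 224 of ratios short of it. Those 4 were in 2 genes. Cdkn1b in D2 over D1 (1.67) was -0.29 for the median cell and -0.22 as a difference of mean log2(CPM + 1). Rbl2 in D2 over D1 (1.73) was -0.46 as a difference of mean logs and -0.11 in plate columns 1 to 6, and ran from -0.87 to 2.07 with each cell left out. The cause was not tested, except that 1 D2 cell held most of the Rbl2 level. Counts of genes past 2-fold moved as follows. Higher in D1 over D0 (1) became 0 with medians, mean logs and a pseudocount of 10 CPM, and 2 with a pseudocount of 0.1 CPM, in columns 1 to 6 and past 1.5-fold, with 1 to 2 as each cell was left out. Higher in D2 over D0 (1) became 0 with medians, mean logs and a pseudocount of 10 CPM, and 3 with TMM factors, median-of-ratios factors and past 1.5-fold. Lower in D2 over D0 (3) became 5 with medians and 6 with mean logs. Higher in D2 over D1 (2) became 0 with medians, mean logs and a pseudocount of 10 CPM and 5 past 1.5-fold, with 1 to 2 as each cell was left out. Lower in D2 over D1 (3) became 1 with a pseudocount of 10 CPM. Lower in D1 over D0 (4) stayed within 1.5 times under each alternative. Of 180 shares of cells, 26 moved beyond their intervals. Rb1 and Ccnd2 had reads in at most 10 cells of any group, so their means rest on few cells.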
